A study of Homo sapiens with 4 samples.

Results

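The genes described here are the D cyclins CCND1, CCND2 and CCND3, the E cyclins CCNE1 and CCNE2, the kinases CDK2 and CDK6, and the CIP/KIP inhibitors CDKN1A, CDKN1B and CDKN1C. They were chosen by name, and all 10 were found among the 61806 genes of the deposited count table. RNA was sequenced from U118-MG, an established human glioma cell line cultured in DMEM with 10% fetal bovine serum. The SPNS2 group (2 libraries) carried a lentiviral pCDH-CMV-MCS-EF1-puro vector with the cDNA of SPNS2, a transporter that exports sphingosine 1-phosphate. The NC group (2 libraries) carried the negative control version of the same vector, and all cells were otherwise labelled wild type. The labels do not say whether infected cells were kept as a pool or as single clones, nor whether libraries with the same label are separate cultures. The spread behind every p-value here may therefore be technical alone. It is the spread between libraries of the same label, pooled over the groups and drawn towards that of all genes.

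The passage from G1 into S phase is driven by cyclin-dependent kinases. D cyclins bind CDK4 or CDK6 in response to mitogens, and E cyclins bind CDK2, and both kinds of complex phosphorylate the RB proteins so that E2F factors can switch on genes of DNA replication. The CIP/KIP proteins p21 (CDKN1A), p27 (CDKN1B) and p57 (CDKN1C) bind cyclin-kinase complexes and inhibit CDK2, and p21 and p27 can also help cyclin D to assemble with its kinase. In gliomas this pathway is often altered by gain of CDK4 or CDK6 or by loss of CDKN2A, which encodes an inhibitor of those kinases.

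Total counts per library were 31353373 and 34125159 in SPNS2 and 31513400 and 32992150 in NC. SPNS2 itself was read 7381 and 8224 times in the SPNS2 libraries, against 42 and 47 times in the NC libraries. Of 10 fixed markers of glioma and astrocytes, 5 had a mean of at least 1 CPM (VIM, NES, SOX9, CD44 and PDGFRA); GFAP, SOX2, OLIG2 and AQP4 lay under 1 CPM and S100B had no counts. The 4 leukocyte markers summed to 0.552 and 0.839 CPM in SPNS2 and to 0.374 and 0.594 CPM in NC. The 5 epithelial markers summed to 2.57 and 3.03 CPM in SPNS2 and 1.31 and 1.58 CPM in NC, and the 3 endothelial markers to 6.43 and 6.83 CPM in SPNS2 and 4.24 and 5.20 CPM in NC. The glioma and astrocyte markers summed to 7711 and 7150 CPM in SPNS2 and 5674 and 6293 CPM in NC. Most of that sum was VIM (6827 and 6222 CPM in SPNS2, 4041 and 4744 CPM in NC). CD44 and SOX9 were also higher in SPNS2. PDGFRA was lower, at 425 and 413 CPM in SPNS2 and 1205 and 1128 CPM in NC. NES was lower too, at 10.1 and 10.9 CPM in SPNS2 and 17.2 and 20.3 CPM in NC. In the endothelial set PECAM1 was higher in SPNS2. VWF (0.39 and 0.12 CPM in SPNS2, 1.653 and 1.575 CPM in NC) and CDH5 were lower. The part of these differences in the results was not tested.

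CDK6 rose in the SPNS2 cells, and CCND1, CDKN1A and CDKN1B fell. With the median fold change of each chromosome arm removed, the direction of CCND1 turned (log2 fold change 0.13, not called) and CDKN1B was no longer called. CCND3 had a higher mean and CCNE2 a lower mean in SPNS2, but neither passed the test, and the 2 SPNS2 libraries differed widely at both. CCNE1 and CDK2 did not pass the test either. CCND2 and CDKN1C had too few reads to be tested. Called means an adjusted p under 0.05 in edgeR's quasi-likelihood test, with Benjamini-Hochberg adjustment over the 17853 genes that passed a low-count filter, and 8 of the 10 genes passed that filter. Of these 8, 4 were called, while 23.4% of all tested genes were called. The 1 call upwards stands beside 12.1% of all tested genes, and the 3 calls downwards beside 11.3%. The libraries of the groups did not overlap at 7 of the 8 genes, and at 66.0% of all tested genes. The median log2 fold change (SPNS2 over NC) of the 8 was -0.10, against -0.0085 over all tested genes. Levels in these bulk RNA samples cannot tell fewer expressing cells, or a different share of cells in each cell cycle phase, from less RNA per cell.

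Among the D cyclins, CCND1 was by far the most abundant. CCND1, which encodes cyclin D1, lies on chromosome 11 (69641087 to 69654474 on hg38, plus strand). Its level was 1170 and 1218 CPM (counts scaled by TMM to a common library size) in the SPNS2 libraries, against 1402 and 1457 CPM in the NC libraries. Both SPNS2 libraries lay below both NC libraries, and the libraries of a group lay close together. CCND1 fell 1.2-fold in SPNS2 (log2 fold change -0.26, SE 0.045, 95% interval -0.38 to -0.14, edgeR adjusted p = 0.0233). The call was lost without the first SPNS2 library (edgeR adjusted p = 0.0737), without the first NC library (0.0667) and without the second NC library (0.0953), and it held without the second SPNS2 library (0.0471). The gene shares 497 exonic bases with LTO1 on the opposite strand, and the strand setting of the counting is not given in the sources used here. LTO1 had 576 and 641 counts in SPNS2 and 653 and 971 in NC, far fewer than CCND1.

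CCND3, which encodes cyclin D3, lies on chromosome 6 (41934933 to 42050357, minus strand). It was read 2417 and 1415 times in the SPNS2 libraries, or 78.5 and 42.4 CPM, against 781 and 1130 times in the NC libraries, or 24.4 and 33.6 CPM. The groups did not overlap, but the first SPNS2 library stood far above the second. The mean was 2.09-fold higher in SPNS2, with a log2 fold change of 1.06 (SE 0.346, 95% interval 0.14 to 1.98), and the adjusted p was 0.0982 (unadjusted p = 0.0326, edgeR). DESeq2 called the gene (adjusted p = 0.0088). So did edgeR without SPNS2 replicate 2 (log2 fold change 1.44, adjusted p = 0.0428), while without SPNS2 replicate 1 the log2 fold change was 0.57 (adjusted p = 0.208). AL513008.1, which shares 24 exonic bases with CCND3, had no counts.

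CCND2, which encodes cyclin D2, lies on chromosome 12 (4273772 to 4305350, plus strand) and was nearly silent. It had 0 counts in both SPNS2 libraries, against 6 and 16 counts in the NC libraries. Taking a floor of 3 counts over the SPNS2 group and the NC counts as exact, its level was at least 7.16-fold lower in SPNS2. That limit was 3.72-fold without SPNS2 replicate 1, 3.44-fold without SPNS2 replicate 2, 10.2-fold without NC replicate 1 and 4.0-fold without NC replicate 2. It failed the low-count filter, and in a fit without that filter its edgeR adjusted p was 0.121. CCND2 shares 989 exonic bases with AC008012.1 on its own strand, which had no counts, and 126 with CCND2-AS1, which had 0 counts in SPNS2 and 0 and 6 in NC.

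**Figure D1:**
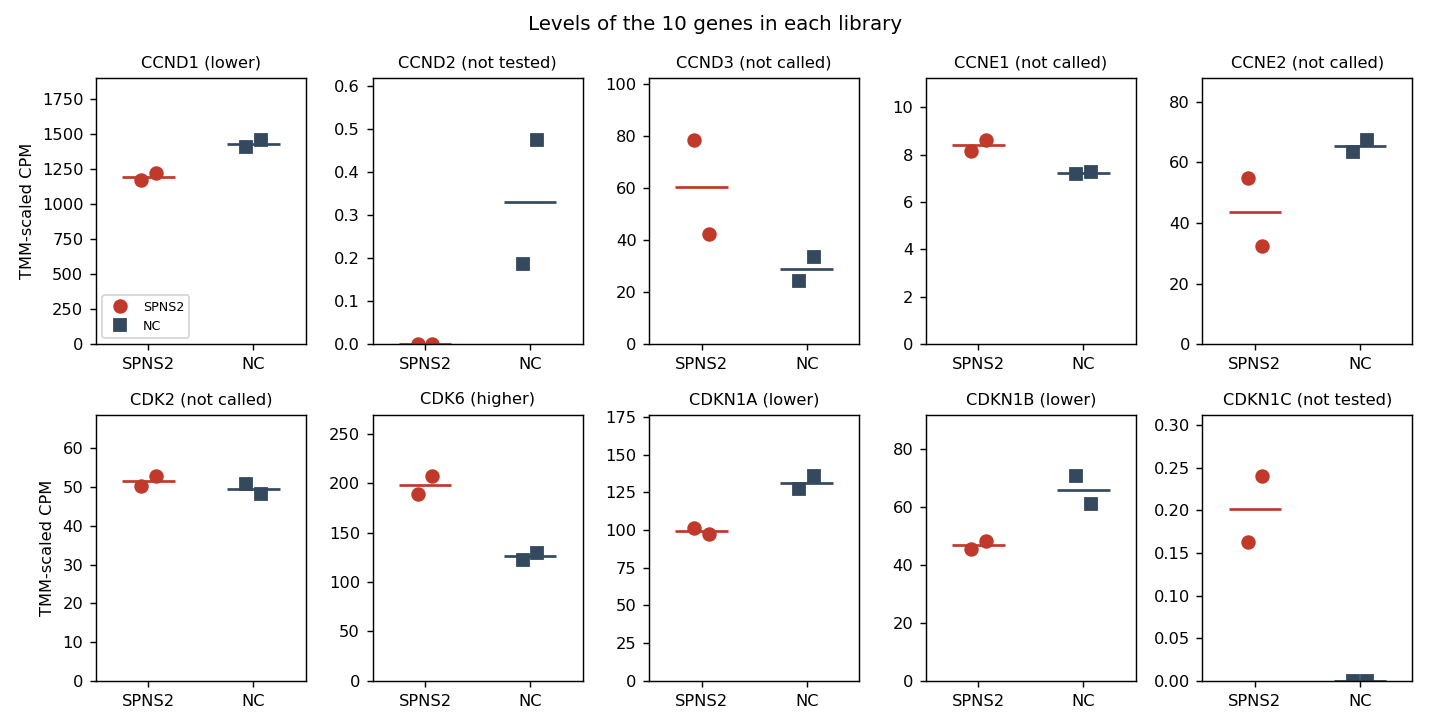
TMM-scaled CPM (y axis, linear, a separate scale for each gene) of the 10 genes in each library, with SPNS2 libraries as red circles on the left and NC libraries as dark squares on the right, and horizontal lines at the group means. The SPNS2 points lie below the NC points for CCND1, CDKN1A and CDKN1B and above them for CDK6, while the SPNS2 points of CCND3 and CCNE2 lie far apart.

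CDK6, a kinase partner of the D cyclins, lies on chromosome 7 (92604921 to 92836594, minus strand). Its level was 189 and 207 CPM in the SPNS2 libraries, against 123 and 129 CPM in the NC libraries. Both SPNS2 libraries lay well above both NC libraries. CDK6 rose 1.57-fold, with a log2 fold change of 0.66, an SE of 0.0726 and a 95% interval of 0.46 to 0.85 (edgeR adjusted p = 0.0086). It was the only one of the 10 genes called with each library left out in turn, with edgeR adjusted p-values of 0.0224 to 0.0476, and the only one called under all 14 other settings tried. Of the 10 genes, 2 were called without the first SPNS2 library (11.3% of all tested genes), 3 without the second (10.3%), 1 without the first NC library (9.03%) and 1 without the second (9.3%). DESeq2 called 5 (28.2% of all tested genes). Exactly 4 were called with RLE factors (23.2%), upper-quartile factors (23.2%), library totals (23.2%), limma-voom (23.8%), a robust fit (24.1%), no low-count filter (11%, over more genes) and a minimum mean of 1 CPM (27.6%). An antisense gene, AC002454.1, shares 81 exonic bases with CDK6 and had 9 and 14 counts in SPNS2 and 5 and 0 in NC.

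RefSeq gives CDK6 more than one start, and the bases before the upstream one are shown because CDK6 is the gene that rose in every setting. The stretch runs from 250 bases before that RefSeq start to the first transcript start in GENCODE release 29 (chr7:92836595-92836823, minus strand, GRCh38.p14, from the RefSeq promoter table), with GC boxes (GGGCGG, searched on both strands) in capitals.
CDK6: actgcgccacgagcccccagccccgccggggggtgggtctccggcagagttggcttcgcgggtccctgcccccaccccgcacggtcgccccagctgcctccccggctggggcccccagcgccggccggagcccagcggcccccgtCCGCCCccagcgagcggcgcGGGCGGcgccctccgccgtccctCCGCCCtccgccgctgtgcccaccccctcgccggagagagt
This stretch of CDK6 holds 3 GC boxes, a motif found in the 250 bases upstream of 42.6% of the 35116 promoters of the table. No match was found in the 250 bases before that start for TTTNGCGC (E2F, in 1.51% of promoters), TGANTCA (AP-1, 6.57%), GTAAACA (FOXO, 2.98%), CACGTG (E-box, 6.34%), CCAAT (32.0%) or TGACG (a core of the cyclic AMP response element, 21.2%). The 250 bases before the other RefSeq start of CDK6 held no GC box and 1 match for TGACG, 74 bases before it, and none for the other motifs.

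CDK2, the kinase partner of the E cyclins, lies on chromosome 12 (55966769 to 55972784, plus strand). It had 50.4 and 52.7 CPM in the SPNS2 libraries, against 50.7 and 48.1 CPM in the NC libraries. The groups overlapped, and the log2 fold change was 0.06 with a 95% interval of -0.15 to 0.27 (edgeR adjusted p = 0.635). An antisense gene, AC025162.1, shares 565 exonic bases with CDK2 and had 36 and 30 counts in SPNS2 and 38 and 51 in NC. PMEL shares 89 exonic bases with it and had 35 and 23 counts in SPNS2 and 47 and 81 in NC. CDK4, the other partner of the D cyclins, was not called, at 265 ± 9.83 CPM in SPNS2 and 218 ± 26.8 CPM in NC (SD, n = 2 each, edgeR adjusted p = 0.125).

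CCNE1, which encodes cyclin E1, lies on chromosome 19 (29811898 to 29824308, plus strand) and was expressed at a low level. It was read 251 and 288 times in the SPNS2 libraries, or 8.15 and 8.63 CPM, against 230 and 244 times in the NC libraries, or 7.17 and 7.25 CPM. The SPNS2 libraries lay slightly above the NC libraries, with a log2 fold change of 0.22 and a 95% interval of -0.18 to 0.62 (edgeR adjusted p = 0.357).

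CCNE2, which encodes cyclin E2, lies on chromosome 8 (94879770 to 94896678, minus strand). It was read 1692 and 1079 times in the SPNS2 libraries, or 55.0 and 32.3 CPM, against 2033 and 2270 times in the NC libraries, or 63.4 and 67.5 CPM. All SPNS2 values lay below the NC values, but the SPNS2 libraries differed from each other more than the first of them did from NC. The log2 fold change was -0.58 (SE 0.266, 95% interval -1.29 to 0.12, edgeR adjusted p = 0.19). It was called without SPNS2 replicate 1 (log2 fold change -1.0, adjusted p = 0.0241) and stood at -0.25 without SPNS2 replicate 2 (adjusted p = 0.209). CCNE2 shares 1629 exonic bases with INTS8 on the opposite strand, whose counts were 2139 and 2205 in SPNS2 and 2300 and 2217 in NC, and 4 bases with AC087752.4, which had at most 4 counts in a library.

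The CIP/KIP inhibitors CDKN1A and CDKN1B were both lower in the SPNS2 cells. CDKN1A, which encodes p21, lies on chromosome 6 (36676460 to 36687339, plus strand). It had 101 and 97.7 CPM in the SPNS2 libraries, against 127 and 135 CPM in the NC libraries, with no overlap. It fell 1.32-fold, or -0.40 on the log2 scale (SE 0.0664, 95% interval -0.58 to -0.22, edgeR adjusted p = 0.0209). CDKN1B, which encodes p27, lies on chromosome 12 (12715058 to 12722371, plus strand). It had 45.3 and 48.3 CPM in the SPNS2 libraries, against 70.4 and 61.0 CPM in the NC libraries, again with no overlap. It fell 1.40-fold, or -0.49 on the log2 scale (SE 0.103, 95% interval -0.76 to -0.21, edgeR adjusted p = 0.0366). DINOL, on the opposite strand, shares 146 exonic bases with CDKN1A and had 5 and 0 counts in each group. Neither call held with a library left out. For CDKN1A the edgeR adjusted p was 0.0738 and 0.0892 without the first and the second SPNS2 library, and 0.0626 and 0.0899 without the first and the second NC library. For CDKN1B it was 0.138 and 0.0976 without an SPNS2 library and 0.122 and 0.0536 without an NC library, in the same order. The log2 fold changes of these fits were -0.45 to -0.36 for CDKN1A and -0.59 to -0.38 for CDKN1B.

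CDKN1C, which encodes p57 and is an imprinted gene, lies on chromosome 11 (2883213 to 2885773, minus strand). It had 5 and 8 counts in the SPNS2 libraries, against 0 counts in both NC libraries. Taking a floor of 3 counts over the NC group and the SPNS2 counts as exact, its level was at least 4.44-fold higher in SPNS2. That limit was 2.27-fold without NC replicate 1 and 2.17-fold without NC replicate 2, and 5.25-fold and 3.56-fold without the first and the second SPNS2 library. It failed the low-count filter, and its edgeR adjusted p without that filter was 0.199.

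Sequences before the RefSeq starts of CDKN1A and CDKN1B are shown because both inhibitors fell. For CDKN1A the stretch runs from 250 bases before the start to the first GENCODE transcript start in that window (chr6:36678464-36678657, plus strand). For CDKN1B a GENCODE transcript begins at the far end of the window, so 30 bases around its first CCAAT box (chr12:12717182-12717211, plus strand) and around its GC box (chr12:12717285-12717314, plus strand) are given. All are from the RefSeq promoter table on GRCh38.p14, with GC boxes (GGGCGG) and CCAAT boxes (CCAAT), on either strand, in capitals.
CDKN1A: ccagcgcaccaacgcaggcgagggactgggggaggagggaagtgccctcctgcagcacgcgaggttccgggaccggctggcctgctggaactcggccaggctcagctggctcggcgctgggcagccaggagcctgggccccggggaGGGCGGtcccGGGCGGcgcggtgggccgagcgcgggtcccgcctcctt
CDKN1B, CCAAT box: tcacgcgaccagCCAATctcccggcggcgc
CDKN1B, GC box: ccagcctcggcgGGGCGGctcccgccgccg
In the full 250 bases CDKN1A had 4 GC boxes, which begin 104, 94, 45 and 40 bases before the RefSeq start, and no CCAAT box. CDKN1B had 1 GC box, 71 bases before its start, and 2 CCAAT boxes, 174 and 50 bases before it. Neither window held a match for the E2F, AP-1, FOXO, E-box or TGACG letters given for CDK6. The RefSeq promoter table held entries for 5 of the 10 genes.

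**Figure D2:**
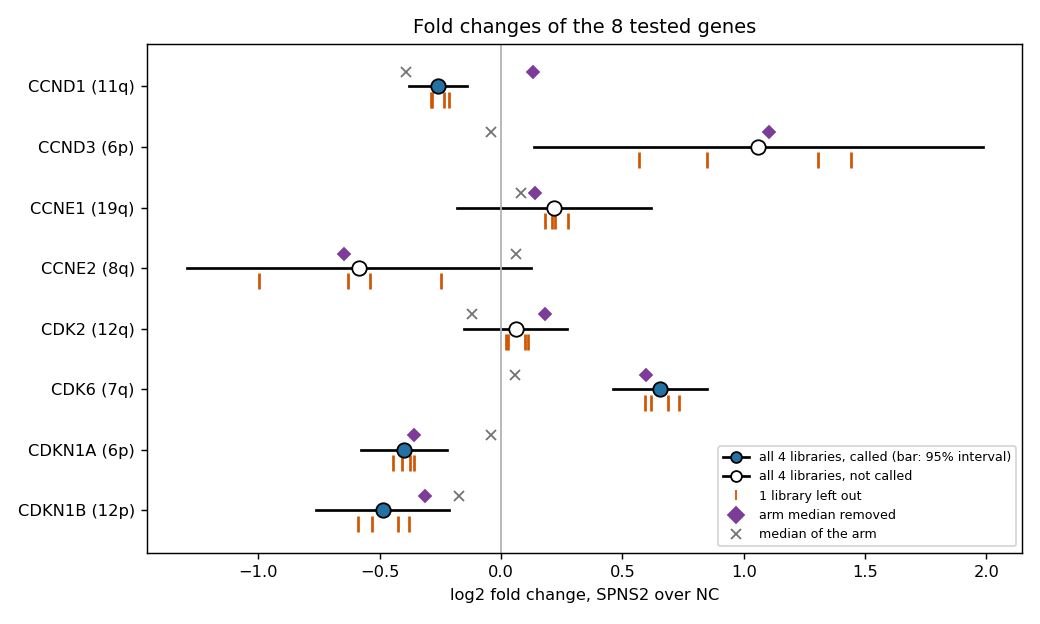
Log2 fold change of SPNS2 over NC (x axis) of the 8 tested genes, one per row with its chromosome arm. Circles with bars are the estimates and 95% intervals from all 4 libraries (filled where called), orange ticks the 4 fits with 1 library left out, grey crosses the median of the tested genes of the arm, and purple diamonds the estimate with that median removed. The diamond of CCND1 (0.13) lies on the other side of 0 from its circle (-0.26), and the ticks of CCND3 and CCNE2 spread most.

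The fold changes of all tested genes shift along chromosome arms in these cells, and the genes sit on arms with different shifts. The long arm of chromosome 11, which carries CCND1, had a median log2 fold change of -0.39 over 630 tested genes. The 28 other tested genes within 2 Mb of CCND1 had a median of -0.47, with 1 called higher and 5 lower. The fall of CCND1 was thus smaller than the median of its arm. With the arm medians removed, its log2 fold change was 0.13 and it was not called (edgeR adjusted p = 0.115); 2 of the 8 genes were then called, and 18.3% of all tested genes. The short arm of chromosome 12, which carries CDKN1B, had a median of -0.17 over 250 genes, and its 30 tested neighbours within 2 Mb a median of -0.17. CDKN1B had a log2 fold change of -0.31 with arm medians removed (adjusted p = 0.107). The arms of CDK6 (0.06 over 569 genes) and CDKN1A (-0.04 over 507 genes) had medians near 0. Both genes stayed called with the arm medians removed, CDK6 at 0.60 (adjusted p = 0.0119) and CDKN1A at -0.36 (adjusted p = 0.0312). What underlies the shifts of the arms was not tested.

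Levels of different genes were compared only per length of exon, as TPM. CCND1 stood at the 99.7th percentile of all genes with counts, at 902 and 947 TPM in the SPNS2 libraries and 1134 and 1181 TPM in the NC libraries. CDKN1A followed at the 96.1st percentile and CDKN1B at the 92.0th. CDK6, CDK2 and CCNE2 lay close together, at the 87.4th, 87.2nd and 86.7th percentiles, and CCND3 (80.2nd) and CCNE1 (67.8th) were below them. The place of CCND3 depends on the gene length used. With the longest transcript as the length, it had 92.0 and 50.2 TPM in SPNS2 and 30.3 and 41.8 TPM in NC. CDK6 then had 45.8 and 50.5 TPM in SPNS2 and 31.4 and 33.1 TPM in NC, so CCND3 was not below it in every library. CDKN1C (18.5th) and CCND2 (13.1st) were last.

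CCND1 made up most of the D cyclin RNA in every library. It held 94.7% and 97.2% of D cyclin TPM in the SPNS2 libraries, against 98.6% and 98.1% in the NC libraries. CCND3 held 5.29% and 2.82% in SPNS2, against 1.43% and 1.88% in NC. The summed D cyclins came to 952 and 974 TPM in SPNS2, against 1150 and 1204 TPM in NC, so the sum was lower in both SPNS2 libraries although CCND3 was higher.

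Among the G1 kinases, CDK4 held 74.1% and 73.8% of the summed TPM of CDK2, CDK4 and CDK6 in SPNS2, against 73.2% and 76.6% in NC. CDK6 held 14.1% and 14.5% in SPNS2, against 11.6% and 10.8% in NC, and passed CDK2 in both SPNS2 libraries. The ratio of CDK6 to CDK2 TPM was 1.19 and 1.25 in SPNS2, against 0.768 and 0.85 in NC. That order depends on the gene length used: with the longest transcript as the length, the ratio was 0.842 and 0.878 in SPNS2 and 0.541 and 0.599 in NC, still higher in SPNS2.

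CCNE1 held 20.4% and 31.5% of E cyclin TPM in SPNS2, against 16.3% and 15.6% in NC, with most of the spread in SPNS2 coming from the 46.5 and 27.6 TPM of CCNE2. The CIP/KIP sum was 184 and 185 TPM in SPNS2, against 261 and 259 TPM in NC. CDKN1A held 67.2% and 64.9% of it in SPNS2 and 62.5% and 67.2% in NC, ranges that overlap. D cyclin TPM over CIP/KIP TPM was 5.18 and 5.26 in SPNS2, against 4.41 and 4.65 in NC, since the inhibitors were lower by more than the cyclins. With 2 libraries a group, an exact permutation test of such a value cannot reach 0.05, and none was made.

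**Figure D3:**
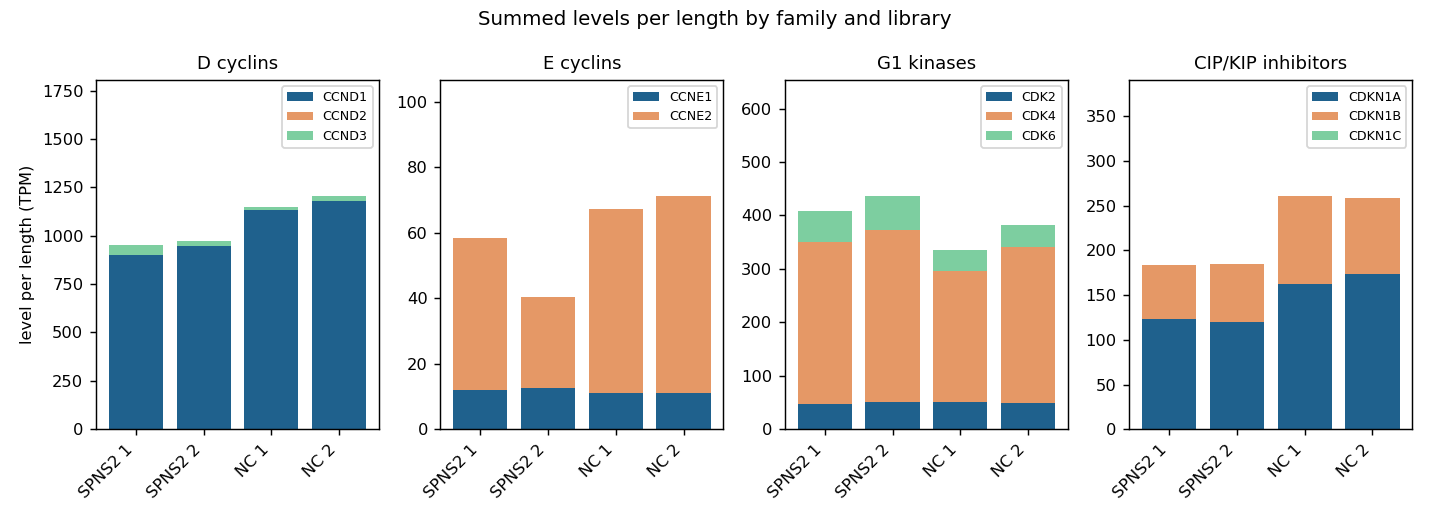
Summed level per length (TPM, y axis from 0, a separate scale for each family) in each library, SPNS2 libraries on the left and NC libraries on the right, stacked by gene. The CIP/KIP bars stand at 184 and 185 TPM in SPNS2 and at 261 and 259 TPM in NC, and CCND1 fills nearly all of the D cyclin bars.

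The other genes of G1 control were described by 7 lists from textbook knowledge. They held 106 genes. Counts below for which no other fit is named stand beside the 12.1% of all tested genes called higher and the 11.3% called lower. In either direction, DESeq2 called 28.2% of all tested genes, and the fit with arm medians removed called 18.3%. Fits that lacked a library also called fewer of all tested genes, as given with CDK6. Calls and medians of these lists are descriptions, and the lists themselves were not tested. Apart from the INK4 and RB genes, the called genes named below are the 4 with the smallest p of each list. That choice favours genes that stay called in other fits of the same 4 libraries. Several of them still lost their call when a library was left out.

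The INK4 inhibitors bind CDK4 and CDK6 directly. CDKN2A (p16 and ARF) had 2 and 0 counts in SPNS2 and 0 in both NC libraries, and CDKN2B had 0 in SPNS2 and 0 and 2 in NC, both too few to test. CDKN2C (p18) fell 1.36-fold, to 64.0 ± 7.72 CPM in SPNS2 against 87.1 ± 1.60 CPM in NC (SD, n = 2 each, edgeR adjusted p = 0.0454). Among the fits that lacked a library it was called only without SPNS2 replicate 1 (0.0445), and its adjusted p was 0.111 to 0.15 in the other 3 fits. CDKN2D (p19) was not called, at 13.4 ± 0.764 CPM in SPNS2 and 10.9 ± 1.95 CPM in NC (edgeR adjusted p = 0.302). Among the RB family, which the kinases phosphorylate, RBL1 (p107) fell 1.2-fold (adjusted p = 0.0434) and RBL2 (p130) rose 1.29-fold (adjusted p = 0.032). RB1 had 93.2 ± 2.92 CPM in SPNS2 and 93.9 ± 4.25 CPM in NC (adjusted p = 0.931). The calls of RBL1 (0.133 to 0.167) and RBL2 (0.0942 to 0.131) were lost with any library left out.

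Of 10 E2F and DP factors, 3 rose, 1 fell and 6 were not called (median log2 fold change 0.11). E2F5 rose 1.84-fold and E2F4 1.3-fold, both partners of the RBL proteins in repressive complexes, and E2F7, an atypical repressor, rose 1.18-fold. E2F2, an activator, fell 1.90-fold, to 12 ± 1.2 CPM in SPNS2 against 22.8 ± 2.0 CPM in NC (edgeR adjusted p = 0.0177). The 6 that were not called went both ways. Log2 fold changes were 0.11 for E2F1, 0.08 for E2F3, 0.10 for TFDP1 and 0.28 for TFDP2. They were -0.14 for E2F6 and -0.39 for E2F8. Whether the role of a factor goes with its direction was not tested. E2F4, E2F5 and E2F7 were not called in any fit that lacked a library (edgeR adjusted p of 0.0565 to 0.147), and E2F2 only without SPNS2 replicate 1 (0.0481). The genes of the G1 to S transition that E2F factors drive had a median of 0.31. Of these 28, 9 were called higher, 19 were not called and none was called lower. The largest change was that of UNG, which was not called (log2 fold change -1.07, edgeR adjusted p = 0.0823). With arm medians removed 6 of the 28 were called, and with the replicate number as a block 3. Those fits called 18.3% and 11.1% of all tested genes. With the first SPNS2 library left out 7 were called, with the second 4, with the first NC library 2 and with the second 5, and 1 of them was lower in each of the 2 fits that lacked an SPNS2 library. DESeq2 called 12, of which 1 was lower. The helicase subunit MCM7 rose 1.58-fold and the licensing factor CDC6 1.59-fold, the helicase subunit MCM4 rose 1.34-fold and the ribonucleotide reductase subunit RRM1 rose 1.38-fold. MCM7 and CDC6 kept their calls with each library left out (adjusted p of 0.0174 to 0.039). MCM4 lost its call without NC replicate 1 (0.0659) and without NC replicate 2 (0.0506), and RRM1 without NC replicate 1 (0.0651) and without SPNS2 replicate 2 (0.0573).

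In the list of other kinases, phosphatases and A and B cyclins, 5 of 13 tested genes were called higher and 8 were not called, with none called lower (median 0.44). Its calls numbered 3 in each fit that lacked an SPNS2 library, 3 and 2 without the first and the second NC library, and 3 with arm medians removed. Of the 5, 4 lie on the long arm of chromosome 5, whose median over 701 genes was 0.43. CDC25B, a phosphatase that activates cyclin-dependent kinases and lies on chromosome 20, rose 1.51-fold (edgeR adjusted p = 0.0054). CDC25C, another such phosphatase, rose 2.36-fold, the mitotic cyclin CCNB1 1.42-fold and CDK7, the kinase that activates other cyclin-dependent kinases, 1.48-fold, all on chromosome 5. With arm medians removed, CDC25C was called (adjusted p = 0.0274) and CCNB1 (0.454) and CDK7 (0.396) were not. CDK7 was not called with any library left out (0.0581 to 0.0941), and CCNB1 was not called without NC replicate 2 (0.0524).

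The list on the breakdown of G1 cyclins and p27 had a median of 0.27, with 7 of 20 genes higher, 1 lower and 12 not called. Its 8 calls came down to 4 and 3 without the first and the second SPNS2 library, and to 2 and 4 without the first and the second NC library. CKS2, a small subunit that binds cyclin-dependent kinases, rose 1.82-fold, to 111 ± 1.31 CPM in SPNS2 against 61.0 ± 2.73 CPM in NC (edgeR adjusted p = 0.004). SKP1, the adaptor of SCF ubiquitin ligases, rose 2.43-fold, and it was not called in either fit that lacked an SPNS2 library. SKP1 lies on the long arm of chromosome 5 (median 0.43), and it was called with arm medians removed (edgeR adjusted p = 0.042). GSK3B, the kinase that marks cyclin D1 for export and breakdown, rose 1.43-fold and lost its call without NC replicate 1 (0.0523). CUL4A, a ubiquitin ligase scaffold, rose 1.32-fold, and every fit that lacked a library lost its call (0.054 to 0.0939).

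Of 26 tested transcription regulators of D cyclins and CIP/KIP genes, 4 rose, 3 fell and 19 were not called (median 0.0092), shares near those of all tested genes. KLF4 fell 2.55-fold, to 34.1 ± 0.0411 CPM in SPNS2 against 87.1 ± 0.629 CPM in NC (edgeR adjusted p = 0.0019). MXD1, a MAX partner that opposes MYC, fell 2.64-fold, to 8.97 ± 0.746 CPM in SPNS2 against 23.7 ± 0.372 CPM in NC (adjusted p = 0.0053). EGR1, an immediate early factor, rose 3.54-fold (adjusted p = 0.0043) and JUN, an AP-1 subunit known to activate CCND1, rose 1.69-fold (adjusted p = 0.0062). EGR1 lies on the long arm of chromosome 5. Its log2 fold change was 1.825, and 1.39 with arm medians removed (edgeR adjusted p = 0.0084). The 4 genes were called with each library left out (0.013 to 0.0352).

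**Figure D4:**
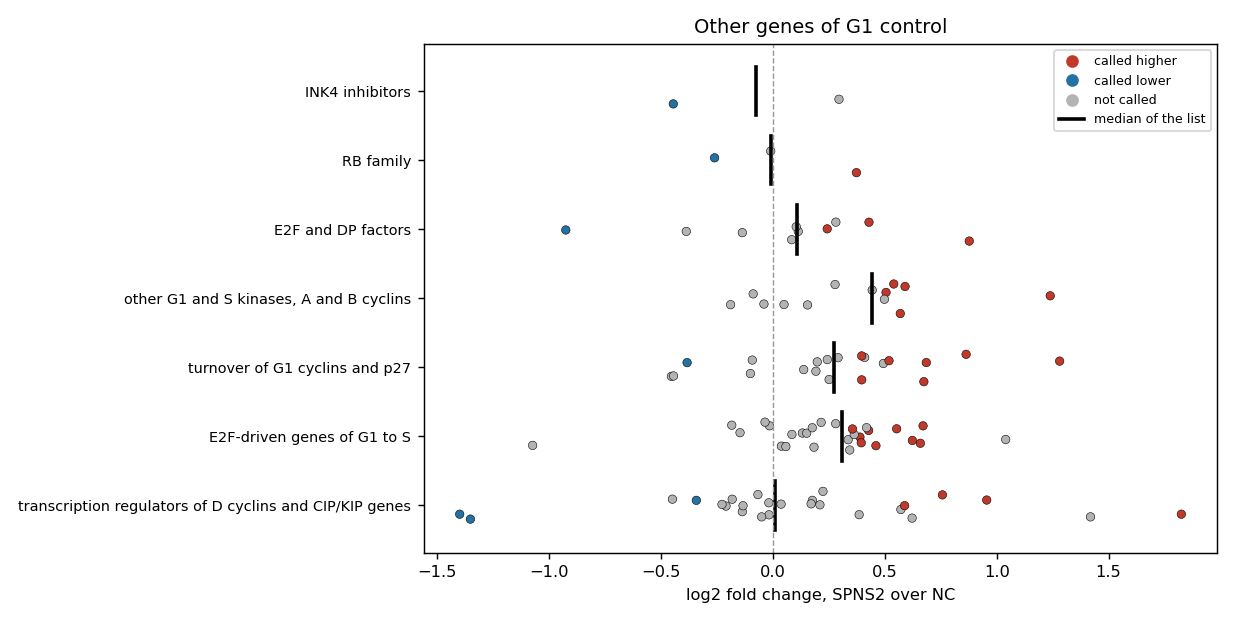
Log2 fold change of SPNS2 over NC (x axis) of every tested gene of the 7 lists, one point per gene, red where called higher, blue where called lower and grey where not called, with the list median as a black bar. Vertical scatter within a row only separates the points. The list of other kinases and A and B cyclins has the highest median (0.44) and the list of INK4 inhibitors, with 2 tested genes, the lowest (-0.075).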

How the data were processed

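The deposited file holds raw counts per Ensembl gene for 4 libraries, not normalized, as the authors made them. Per the submitters' processing notes, Trim Galore 0.6.9, HISAT2 2.2.1, featureCounts 0.3 and hg38 were used. The sources used here give no settings, annotation release or strand. One row without counts was left out. Genes were kept by filterByExpr (minimum count 10, minimum total 15), scaled by TMM and compared, SPNS2 over NC, with the two-sided quasi-likelihood test of edgeR 4.0.16 in R 4.3.3, with the group as the only term. The standard error is the log2 fold change divided by the square root of F, and intervals use the degrees of freedom of that test. Positions, overlaps and lengths came from GENCODE release 29 (GRCh38), with arms divided at approximate centromere positions; 17382 tested genes matched by identifier. TPM used the union of a gene's exons. Floors cover only the counting error of the group without reads, and the counts of the other group are taken as exact.

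The genes and lists were chosen with earlier results of these data known, and one further list is not reported here. Named beside the 10 genes were SPNS2, CDK4, all INK4 and RB genes, genes whose exons overlap one of the 10, and of each other list the 4 genes with the smallest p and a mean of at least 1 CPM. UNG and the E2F and DP factors that were not called were named after their values were seen. Alternatives were DESeq2 1.42.0, limma-voom (limma 3.58.1), RLE factors, upper-quartile factors, library totals, a robust fit, a minimum mean of 1 CPM, no low-count filter, arm medians removed, each library left out in turn, a replicate block, and the longest transcript as the length.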

Additional observations from a re-analysis of the deposited data

How the results depend on the processing

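The number of called genes over the whole table was 4171. It fell to 1976 with a replicate block and to 1712 to 2144 with a library left out. Of the 10 genes described, 4 were called. With a replicate block 2 were called (CCND1 and CDK6), with arm medians removed 2 (CDK6 and CDKN1A), and with a library left out 1 to 3. Of the genes in the 7 lists, 36 were called, against 17 with a replicate block and 13 to 22 with a library left out. The calls of CDKN1A (log2 fold change -0.40, edgeR adjusted p = 0.0674) and CDKN1B (-0.49, 0.0878) were lost with the replicate block. Deviations of same-numbered libraries from their group means had a correlation of -0.0778 across genes. The labels do not say what the replicate numbers mark, so whether they pair the samples is not known. Log2 fold changes with the block were near those without it, at -0.26 in both fits for CCND1. For CDK6 they were 0.654 with the block and 0.655 without it.

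With arm medians removed CCND1 reversed to 0.13 and the call of CDKN1B was lost (-0.31); the cause was not tested, and DESeq2 called CCND3 (1.06). Log2 fold changes in the fits that lacked a library were -0.29 to -0.21 for CCND1, 0.57 to 1.44 for CCND3, -1.0 to -0.25 for CCNE2, -0.45 to -0.36 for CDKN1A, -0.59 to -0.38 for CDKN1B and -0.056 to 0.039 for RB1, which was not called in any of these fits. A fit with 1 library in a group assumes that this library varies like those of the other group. The direction of CCND3, CCNE1, CCNE2, CDK2, CDK6, CDKN1A and CDKN1B was the same in all 14 other settings.

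The longest transcript in place of all exons moved the mean family shares. CCND1 then held 91.7% in SPNS2 and 96.5% in NC, CCND3 8.33% in SPNS2 and 3.51% in NC, CDK2 12.1% in SPNS2, CDK4 77.6% in SPNS2 and 77.8% in NC, CDK6 10.4% in SPNS2 and 8.04% in NC, CDKN1A 71.2% in SPNS2 and 70.1% in NC, and CDKN1B 28.6% in SPNS2 and 29.9% in NC. In NC, CCNE1 held 15.2% and CCNE2 84.8%. At the depth of these libraries counts were too low to test for CCND2, CDKN1C, CDKN2A and CDKN2B. Leaving out libraries for the fold limits of CCND2 and CDKN1C was chosen after seeing the data.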

Other observations

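Several listed genes, among them MSH6, SP3, MYC and MAX, differed more between libraries of one group than between the groups. They were chosen after their values were seen. MYC, a transcription factor that promotes entry into S phase, had 1616 and 310 counts in the SPNS2 libraries and 182 and 1158 counts in the NC libraries. Its partner MAX had 399 and 1461 counts in SPNS2 and 1215 and 660 counts in NC. MYC was thus high where MAX was low in each group, and a relation between them was not tested. Neither MYC nor MAX was called (edgeR adjusted p = 0.737 for MYC and 0.987 for MAX).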
